A study of Rattus norvegicus with 64 samples.

Results

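The expression of 9 genes that let a tissue use ketone bodies, lactate and glucose was followed in the entorhinal cortex of the rat across the change from milk to solid food. The 9 genes, Oxct1, Bdh1, Acat1, Slc16a1, Slc16a7, Ldha, Ldhb, Hk1 and Hk2, were chosen by name for their place in fuel use, and all of them were found among the 17260 genes counted. Total RNA, depleted of ribosomal RNA, was sequenced from Long Evans rats aged 2, 9, 23 or 45 postnatal days (P), and both the medial (MEC) and the lateral (LEC) part of the cortex were separated into layer II (LII) and the pooled deeper layers (LDeep, layers III to VI). The 64 libraries formed 16 groups, with 5 libraries in each P2 group, 3 in each P23 group and 4 in each P9 and P45 group. No treatment or allele is named for any group, and the labels do not say which libraries share an animal. P2 and P9 pups were suckling and P23 and P45 rats were weaned, so that age and diet changed together and their parts cannot be told apart.

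The suckling rat feeds on milk rich in fat, its liver turns fatty acids into ketone bodies, and the brain at this age burns ketone bodies and lactate beside glucose. Monocarboxylate transporters carry ketone bodies and lactate over the cell membrane. In the mitochondrion Bdh1 oxidises beta-hydroxybutyrate to acetoacetate, Oxct1 activates acetoacetate with coenzyme A and Acat1 splits the product into acetyl-CoA. The lactate dehydrogenase subunits encoded by Ldha and Ldhb interconvert pyruvate and lactate, and hexokinases commit glucose to use by phosphorylating it. In bulk tissue, fewer cells of a type and less RNA per cell cannot be told apart.

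The libraries held 3894334 to 11439143 counted read pairs, with a median of 7569157.5. Hk2 was the least covered gene, with 16 to 165 counts per library, whereas the other 8 genes had at least 60 counts in every library. Levels are given as log2 CPM (counts scaled to library size with TMM factors, with a prior count of 2), and differences as log2 fold changes (LFC) ± SE from edgeR's quasi-likelihood test with Benjamini-Hochberg (BH) adjustment over 12521 genes. A gene was called where the adjusted p was below 0.05. Of 32 pairs of LII and LDeep libraries with the same region, age and replicate number, the summed level of the LII markers Reln, Calb1 and Wfs1 was higher in LII in 31, and the deep layer markers were lower in LII in 32.

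A few libraries stood apart. The library labelled MEC LII P2 replicate 1 had a summed meningeal fibroblast level of 18.3 CPM, below the 33.2 to 875 CPM of the rest of its group, and the library labelled MEC LDeep P2 replicate 1 had 724 CPM against 42.3 to 85.0 CPM in its group. The LII markers summed to 702 CPM in the first and to 785 CPM in the second, which went against their labels, while the deep layer markers summed to 356 and 440 CPM, in the order of the labels. LEC LII P9 replicate 2 had 755 CPM of oligodendrocyte markers against 77.3 to 98.7 CPM in the rest of its group. LEC LDeep P45 replicate 4 had 1400 CPM of LII markers against 572 to 830 CPM, and 8 of the 9 genes lay outside the range of the other libraries of its group. The same count was 5 for MEC LII P2 replicate 1, 3 for MEC LDeep P2 replicate 1 and 0 for LEC LII P9 replicate 2. The share of all genes outside such a range was not counted. Without these 4 libraries, 60 of the 61 differences of the 9 genes that exceeded their SE kept their direction and their side of the threshold, and the exception is given with Ldhb.

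Expressed per exon length (CPM per kilobase of exon, RPKM, mean ± SD over replicate numbers), Ldha was the most abundant of the 9 transcripts at P2 and P9 and Ldhb at P23 and P45, and Hk2 was the least abundant at every age. At P2 Ldha (211 ± 12.6 RPKM, n = 5) was followed by Ldhb (150 ± 8.84) and Hk1 (146 ± 9.17), which did not differ beyond their spread. At P9 the order was Ldha (365 ± 8.6 RPKM, n = 4), Ldhb (268 ± 22.6), Oxct1 (178 ± 13.6), Hk1 (138 ± 8.41), Acat1 (113 ± 7.1), Bdh1 (81.0 ± 5.72), Slc16a1 (56.5 ± 8.58), Slc16a7 (17.6 ± 1.19) and Hk2 (1.83 ± 0.22). At P45 the order began with Ldhb (464 ± 9.5 RPKM, n = 4), followed by Ldha (336 ± 19.1), Hk1 (149 ± 19.6) and Oxct1 (138 ± 4.75). Hk1 and Oxct1 did not differ at P45 beyond their spread.

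**Figure D1:**
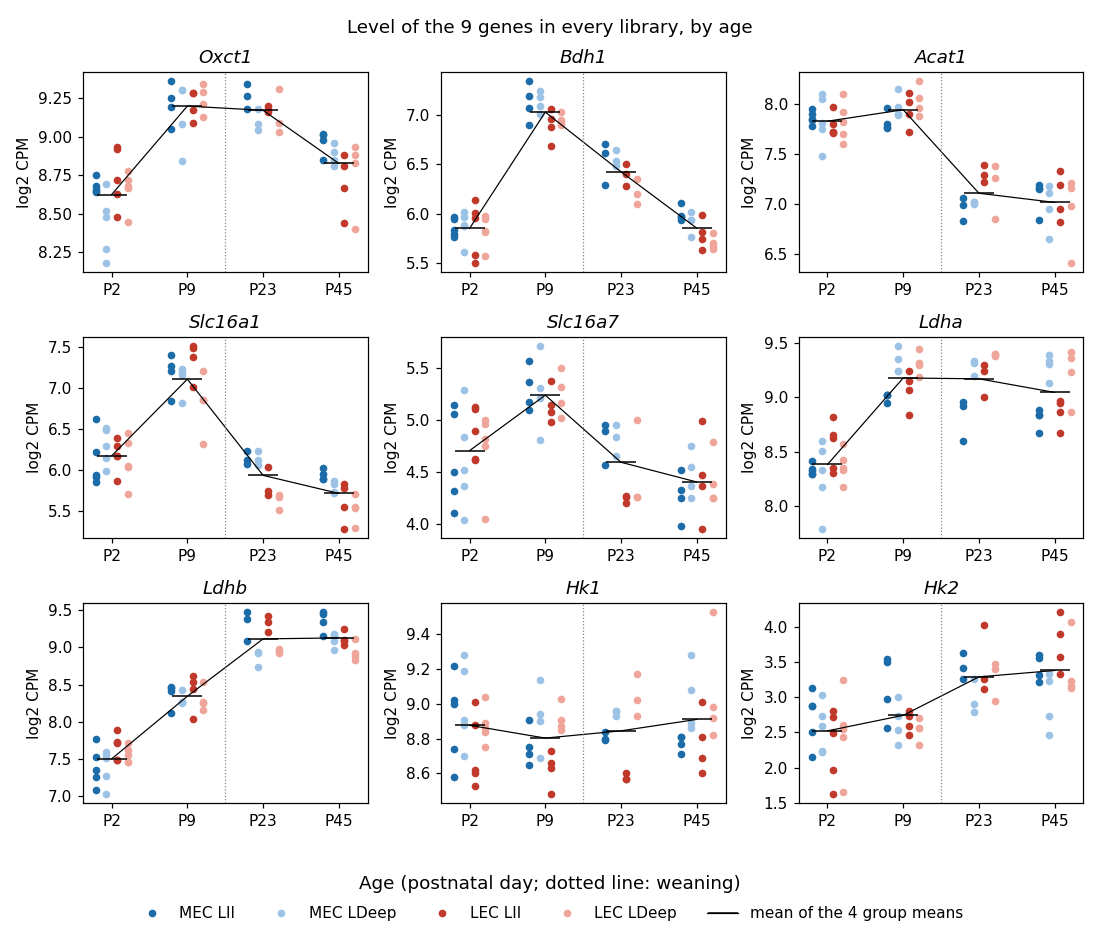
Level of each of the 9 genes in log2 CPM on the vertical axis against age in postnatal days, with 1 point per library coloured by region and layer, a bar for the mean of the 4 group means, and a dotted line between the suckling and the weaned ages. Bdh1, Slc16a1 and Slc16a7 peaked at P9, Acat1 stepped down between P9 and P23, Ldhb climbed from 7.50 at P2 to 9.11 at P23, and Hk1 stayed between mean levels of 8.80 and 8.91.

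The promoter windows of 4 of the genes are shown because Bdh1 and Slc16a1 shared a peak at P9, whereas Ldha and Ldhb, which encode subunits of the same enzyme, moved apart after P9. The windows run from 250 bases before to 50 bases after the annotated start and come from RefSeq on the GRCr8 build, on which all 9 genes were matched. Capitals mark CCAAT and the core of the hypoxia response element, ACGTG, each searched on both strands. Matches of the core on both strands overlap where they form the E-box CACGTG.
Bdh1 (chr11:82842587-82842886, minus strand): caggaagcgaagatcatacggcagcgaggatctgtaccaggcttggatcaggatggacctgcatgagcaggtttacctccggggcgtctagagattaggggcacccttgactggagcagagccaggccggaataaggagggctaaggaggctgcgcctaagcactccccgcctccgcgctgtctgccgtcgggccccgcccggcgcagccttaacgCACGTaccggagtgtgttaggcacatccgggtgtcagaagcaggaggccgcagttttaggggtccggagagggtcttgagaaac
Slc16a1 (chr2:194812410-194812709, plus strand): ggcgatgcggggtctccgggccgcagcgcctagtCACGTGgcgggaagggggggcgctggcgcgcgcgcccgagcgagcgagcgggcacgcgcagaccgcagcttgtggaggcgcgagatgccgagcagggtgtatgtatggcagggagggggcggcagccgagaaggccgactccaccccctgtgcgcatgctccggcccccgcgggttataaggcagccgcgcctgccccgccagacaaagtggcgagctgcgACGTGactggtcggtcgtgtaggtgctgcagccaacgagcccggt
Ldha (chr1:106507842-106508141, plus strand): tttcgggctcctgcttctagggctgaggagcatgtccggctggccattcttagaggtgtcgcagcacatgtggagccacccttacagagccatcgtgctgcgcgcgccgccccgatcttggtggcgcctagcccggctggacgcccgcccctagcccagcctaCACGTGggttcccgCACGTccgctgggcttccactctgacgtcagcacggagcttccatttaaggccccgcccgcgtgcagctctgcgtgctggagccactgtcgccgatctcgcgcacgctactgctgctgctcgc
Ldhb (chr4:177177359-177177658, minus strand): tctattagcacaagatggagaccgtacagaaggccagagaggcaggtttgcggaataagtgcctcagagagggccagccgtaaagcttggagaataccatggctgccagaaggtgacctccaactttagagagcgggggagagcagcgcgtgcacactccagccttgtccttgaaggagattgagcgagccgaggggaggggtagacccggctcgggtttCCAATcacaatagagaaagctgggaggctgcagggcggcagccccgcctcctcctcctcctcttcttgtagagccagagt
The Ldha window held the E-box at -87 and a further core on the opposite strand at -73, counted from the start. The Slc16a1 window held the E-box at -216 and a further core at 6, and the Bdh1 window held 1 core at -34, on the opposite strand. The Ldhb window held CCAAT at -30, and the letters of the core were not found in it. Among the genes not shown, the core was also found in windows of Oxct1, Slc16a7 and Hk1, and not in those of Acat1 and Hk2. CCAAT was also found in windows of Acat1 and Hk1. Whether either match goes with the age pattern of the genes was not tested. Of 33469 windows of this length, 19.3% held the core on either strand and 37.5% held CCAAT, and these matches of letters are a description and not a sign of binding.

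The first comparison asked how the genes differed between weaned (P23 and P45) and suckling (P2 and P9) rats, over both regions and layers. Here and for the lists below, a change after weaning means P23 and P45 against P2 and P9, whichever age step it fell in. Of the 9 genes, 4 were higher (Ldhb, Hk2, Ldha and Oxct1) and 4 were lower (Slc16a1, Acat1, Slc16a7 and Bdh1) after weaning, while 81.6% of all genes were called in this comparison. The median absolute LFC was 0.49 for the 9 genes and 0.46 for all genes tested. Ldhb had the largest change, a 2.29-fold rise, and Slc16a1 fell by 43.7% and Acat1 fell by 43.3%. Hk1, which encodes the main hexokinase of the brain, was not called (adjusted p = 0.44).

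By age step, 6 of the 9 genes rose from P2 to P9 and none fell, against 63.4% of all genes called in either direction. Of the 9 genes, 2 rose and 4 fell from P9 to P23, the step that spans weaning, against 64.6% of all genes called. From P23 to P45 only Bdh1 and Oxct1 were called, both lower, against 3.85% of all genes. The median LFC of the 9 genes was 0.57 from P2 to P9, -0.03 from P9 to P23 and -0.12 from P23 to P45, while that of all genes lay between -0.005 and 0.011 at each step. With counts summed over the 4 libraries of each replicate number, which leaves 16 values, 7 of the 9 genes were called between weaned and suckling rats, 6 from P2 to P9, 6 from P9 to P23 and 1, Bdh1, from P23 to P45. In the same order, 77.3%, 54.0%, 55.8% and 0.458% of all genes were called with summed counts.

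**Figure D2:**
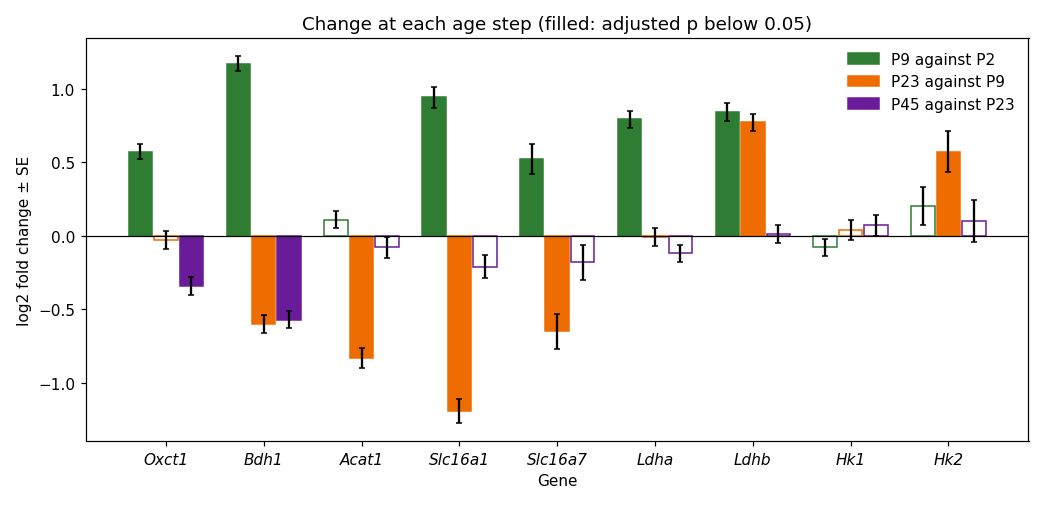
LFC ± SE of each gene (vertical axis, log2 scale) at the 3 age steps, green for P9 against P2, orange for P23 against P9 and purple for P45 against P23, with filled bars for an adjusted p below 0.05. Slc16a1 rose by 0.94 and then fell by 1.19, whereas Ldhb rose by 0.84 and again by 0.77.

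Bdh1 encodes beta-hydroxybutyrate dehydrogenase of the mitochondrial inner membrane (Rn6, chromosome 11, 72578925 to 72613924, minus strand, counted over 7 exon parts). Bdh1 ranged from 5.50 to 6.14 log2 CPM in the 20 libraries of P2 (median 5.89) and from 6.68 to 7.34 in the 16 of P9 (median 7.02). After weaning the range was 6.10 to 6.70 with a median of 6.44 in P23 rats, and 5.63 to 6.11 with a median of 5.88 in P45 rats. Every P9 library was thus above every P2 and every P45 library, and the P2 and P45 ranges lay on top of each other. Bdh1 rose from P2 to P9 (LFC = 1.17 ± 0.05, adjusted p = 9.7e-26), a 2.26-fold change larger in size than that of 94.4% of the genes tested. It then fell in both later steps, to P23 (LFC = -0.60 ± 0.06, adjusted p = 1.9e-13) and to P45 (LFC = -0.57 ± 0.06, adjusted p = 2.4e-10). The weaned against suckling difference of Bdh1 was smaller than each of these steps (LFC = -0.30 ± 0.04, adjusted p = 4.2e-10).

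Oxct1 encodes succinyl-CoA:3-ketoacid CoA transferase, the enzyme that commits acetoacetate to oxidation outside the liver (chromosome 2, 53859738 to 54007733, plus strand, 17 exon parts). Oxct1 ranged from 8.18 to 8.93 log2 CPM (median 8.67) in P2 libraries and from 8.84 to 9.36 (median 9.23) in P9 libraries, while P23 libraries held 9.03 to 9.34 (median 9.17) and P45 libraries 8.40 to 9.02 (median 8.87). The P9 and P23 ranges overlapped, and every P45 library was below every P23 library. Oxct1 rose from P2 to P9 (LFC = 0.57 ± 0.05, adjusted p = 1.5e-14), was not called from P9 to P23 (adjusted p = 0.65) and was lower at P45 than at P23 (LFC = -0.34 ± 0.06, adjusted p = 5.1e-05). The call from P23 to P45 was lost with counts summed per replicate number (LFC = -0.30, adjusted p = 0.078). The weaned against suckling LFC of 0.09 ± 0.04 (adjusted p = 0.035) was lost with summed counts (adjusted p = 0.15), with upper-quartile scaling (adjusted p = 0.21) and in 32 of 80 fits that left out a library or a replicate number, and was -0.08 with limma voom and quantile normalization.

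Acat1 encodes the mitochondrial thiolase that yields acetyl-CoA from acetoacetyl-CoA and also acts in isoleucine breakdown (chromosome 8, 58166991 to 58195884, minus strand, 12 exon parts). Acat1 ranged from 7.48 to 8.10 log2 CPM (median 7.81) in P2 libraries and from 7.72 to 8.23 (median 7.93) in P9 libraries, while P23 libraries held 6.83 to 7.39 (median 7.04) and P45 libraries 6.41 to 7.33 (median 7.13). The suckling and the weaned libraries did not overlap, with every library at P23 and P45 below every library at P9. The change fell within the weaning step (LFC = -0.83 ± 0.07, adjusted p = 6.1e-15), and neither the step before it (LFC = 0.11 ± 0.06, adjusted p = 0.12) nor the step after it (LFC = -0.08 ± 0.07, adjusted p = 0.68) was called. Per exon length, Oxct1 exceeded Bdh1 in every library, with a median ratio of 3.41 in P2, 2.24 in P9, 3.25 in P23 and 3.98 in P45 rats.

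Slc16a1 encodes the monocarboxylate transporter MCT1, known from brain endothelium, astrocytes and oligodendrocytes (chromosome 2, 207108552 to 207128561, plus strand, 5 exon parts). Slc16a1 ranged from 5.71 to 6.63 log2 CPM (median 6.18) in P2 libraries and from 6.32 to 7.51 (median 7.20) in P9 libraries, while P23 libraries held 5.52 to 6.24 (median 6.06) and P45 libraries 5.29 to 6.03 (median 5.76). Every library of a weaned rat was below every P9 library. Slc16a1 rose 1.91-fold from P2 to P9 (LFC = 0.94 ± 0.07, adjusted p = 1.8e-16) and fell by 56.1% from P9 to P23 (LFC = -1.19 ± 0.08, adjusted p = 5.2e-18), the largest weaning step of the 9 genes. The later step was not called (LFC = -0.21 ± 0.08, adjusted p = 0.15).

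Slc16a7 encodes MCT2, the high-affinity monocarboxylate transporter of neurons (chromosome 7, 68446351 to 68549763, minus strand, 5 exon parts). Slc16a7 ranged from 4.03 to 5.29 log2 CPM (median 4.78) in P2 libraries and from 4.81 to 5.71 (median 5.19) in P9 libraries, while P23 libraries held 4.20 to 5.00 (median 4.61) and P45 libraries 3.95 to 4.99 (median 4.36). The ranges overlapped at each step. Slc16a7 rose from P2 to P9 (LFC = 0.52 ± 0.10, adjusted p = 2.3e-05) and fell from P9 to P23 (LFC = -0.65 ± 0.12, adjusted p = 4.9e-06). In each library there was more Slc16a1 than Slc16a7 per exon length, with a median ratio of 2.58 and 3.17 in P2 and P9 pups and of 2.35 and 2.23 in P23 and P45 rats. Over the 16 group means, the log2 CPM of the 2 transporters correlated at r = 0.90, as a description of groups that share their ages and libraries.

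Markers of other cells moved with age in the same libraries. The summed endothelial markers had medians of 218, 381, 463 and 430 CPM in the order of age. From P9 to P23, 4 of 6 endothelial markers were called higher and 1 lower. The astrocyte markers summed to a median of 910, 1860, 3230 and 3410 CPM and the oligodendrocyte markers to 72.7, 98.9, 4070 and 3470 CPM at the same ages. The neuron markers had medians of 4720, 5170, 5870 and 5930 CPM, and the cycling cell markers 150, 84.7, 13.5 and 12 CPM. Blood markers summed to medians of 615, 1310, 2730 and 1020 CPM, and microglia markers to 92.8, 133, 333 and 316 CPM. All 4 cycling markers, 1 of 6 astrocyte, 1 of 7 neuron and 3 of 6 deep layer neuron markers fell between suckling and weaned rats. In the same comparison 6 of 6 oligodendrocyte, 6 of 6 microglia, 5 of 6 astrocyte, 6 of 7 neuron and 4 of 6 endothelial markers rose. So did 4 of 4 blood, 2 of 3 LII neuron and 1 of 7 meningeal fibroblast markers. The part of these cell types in the changes of the 9 genes was not tested.

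Ldhb encodes the H subunit of lactate dehydrogenase, found in tissues that oxidise lactate (chromosome 4, 176701985 to 176719891, minus strand, 8 exon parts). Ldhb ranged from 7.02 to 7.89 log2 CPM (median 7.51) in P2 libraries and from 8.04 to 8.61 (median 8.34) in P9 libraries, while P23 libraries held 8.74 to 9.48 (median 9.04) and P45 libraries 8.83 to 9.48 (median 9.11). Each age up to P23 lay wholly above the age before it. Ldhb rose from P2 to P9 (LFC = 0.84 ± 0.06, adjusted p = 1.3e-18) and again from P9 to P23 (LFC = 0.77 ± 0.06, adjusted p = 1.6e-15), and was not called after that (adjusted p = 0.96).

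Ldha encodes the M subunit, which predominates in glycolytic tissue (chromosome 1, 102900288 to 102909707, plus strand, 8 exon parts). Ldha ranged from 7.79 to 8.82 log2 CPM (median 8.34) in P2 libraries and from 8.84 to 9.47 (median 9.21) in P9 libraries, while P23 libraries held 8.60 to 9.40 (median 9.27) and P45 libraries 8.67 to 9.42 (median 8.96). Every P9 library was above every P2 library, and the 3 later ages overlapped. Ldha rose from P2 to P9 (LFC = 0.79 ± 0.06, adjusted p = 5.3e-18) and was not called at the weaning step (adjusted p = 0.94) or later (LFC = -0.12 ± 0.06, adjusted p = 0.33). The counting command in the file headers did not ask for read pairs that map to more than 1 place, so that the level of a gene with near-identical copies elsewhere in the genome is uncertain.

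The ratio of Ldhb to Ldha within a library, per exon length, had a median of 0.701 at P2 (range 0.547 to 0.921) and 0.701 at P9 (range 0.617 to 0.928). It was 1.21 at P23 (range 0.936 to 1.88) and 1.35 at P45 (range 0.911 to 2.05). No suckling library had more Ldhb than Ldha, whereas 7 of 12 libraries at P23 and 15 of 16 at P45 did. In LII the median was 0.853 at P9 and 1.67 at P23, and in LDeep it was 0.645 at P9 and 0.974 at P23. The ranges of LII and LDeep did not overlap at P9, P23 or P45.

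**Figure D3:**
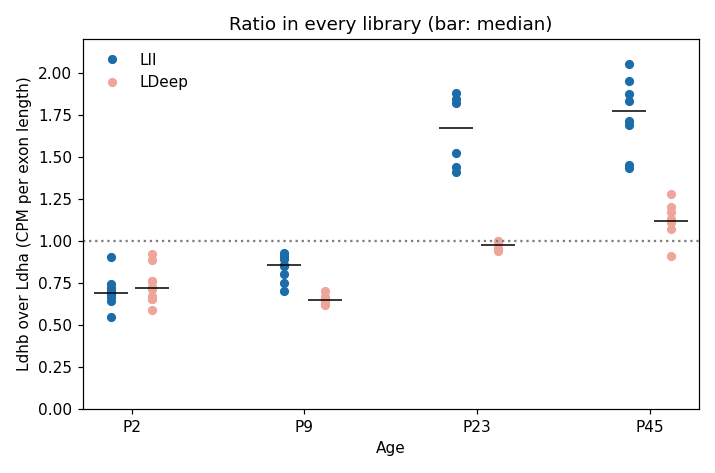
Ratio of Ldhb to Ldha (CPM per exon length, vertical axis) in each library against age, blue for LII and pink for LDeep, with a bar at the median and a dotted line at a ratio of 1. All LII libraries lay below 0.93 at P2 and P9 and between 1.41 and 2.05 at P23 and P45, while LDeep libraries of weaned rats lay between 0.911 and 1.28.

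Hk1 encodes the hexokinase bound to neuronal mitochondria (chromosome 20, 31911460 to 31979780, minus strand, 17 exon parts). Hk1 ranged from 8.53 to 9.28 log2 CPM (median 8.88) in P2 libraries and from 8.48 to 9.14 (median 8.80) in P9 libraries, while P23 libraries held 8.57 to 9.17 (median 8.89) and P45 libraries 8.60 to 9.53 (median 8.84). The ages overlapped throughout and no step was called, with adjusted p of 0.23, 0.61 and 0.67, although limma voom called the first (LFC = -0.11, adjusted p = 0.026). Hk2, the insulin-responsive hexokinase of muscle and fat (chromosome 4, 113560880 to 113609897, minus strand, 18 exon parts), was far lower. Hk2 ranged from 1.62 to 3.25 log2 CPM (median 2.57) in P2 libraries and from 2.32 to 3.55 (median 2.65) in P9 libraries, while P23 libraries held 2.79 to 4.03 (median 3.26) and P45 libraries 2.47 to 4.22 (median 3.33). Hk2 rose from P9 to P23 (LFC = 0.57 ± 0.14, adjusted p = 0.00053), and its other steps were not called (adjusted p = 0.18 and 0.81). Hk1 exceeded Hk2 in every library, with a median ratio per exon length of 89.2 and 83.4 in suckling pups of P2 and P9 and of 54.5 and 51.6 in weaned rats of P23 and P45. In MEC alone, the rise of Hk2 from P9 to P23 was 0.29 (adjusted p = 0.19).

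The second comparison set LII against LDeep over all ages and both regions. Of the 9 genes, 2 were higher in LII (Ldhb and Hk2) and 2 were higher in LDeep (Ldha and Hk1), against 54.0% of all genes called. With TMM scaling and no replicate block, none of the 5 genes of ketone use and monocarboxylate transport was called by edgeR. In that fit 1 of them, Slc16a1, had an unadjusted p below 0.05, against 7376 of all 12521 genes. The median absolute LFC was 0.12 for the 9 genes and 0.16 for all genes. Of all called genes 43.5% were higher in LII, and 59.5% with upper-quartile scaling. Under that scaling 7 of the 9 genes were called, against 46.1% of all genes, and Ldhb, Hk2, Ldha and Hk1 kept their direction.

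Ldha had the same median of 8.34 log2 CPM in both layers at P2. At P9 the LII libraries lay at 8.84 to 9.24 with a median of 9.02 and the LDeep libraries at 9.19 to 9.47 with a median of 9.31. At P45 the medians were 8.86 in LII and 9.32 in LDeep. Within region and age, the LII mean was below the LDeep mean in 6 of 8 sets, all those after P2, and in 4 of them no library overlapped. The LFC over all ages was -0.23 ± 0.04 (adjusted p = 5.5e-06), and in LEC alone it was -0.14 (adjusted p = 0.067).

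LII libraries held 8.48 to 9.22 log2 CPM of Hk1 with a median of 8.73, and LDeep libraries 8.69 to 9.53 with a median of 8.93. The Hk1 mean was lower in LII in 8 of 8 sets of region and age, by 0.08 to 0.46 log2 CPM, without overlap in 4 (LFC = -0.23 ± 0.04, adjusted p = 1.8e-05). Ldhb showed the opposite order. In P2 pups the LII median was 7.50 and the LDeep median 7.53, and in P9 pups 8.45 and 8.26. In P23 rats they were 9.36 and 8.93, and in P45 rats 9.20 and 9.03. At P23 every LII library was above every LDeep library in both regions (LFC over all ages = 0.20 ± 0.04, adjusted p = 0.00013). Hk2 lay between 1.62 and 4.22 in LII libraries, with a median of 3.13, and between 1.65 and 4.07 in LDeep libraries, with a median of 2.74, and had an LFC of 0.27 ± 0.10 (adjusted p = 0.016) that was 0.14 in LEC alone (adjusted p = 0.46) and 0.04 with limma voom and quantile normalization (adjusted p = 0.75). Slc16a1 (LFC = 0.12 ± 0.06, adjusted p = 0.062) and Oxct1 (LFC = 0.07 ± 0.04, adjusted p = 0.11) were not called, but were called higher in LII under upper-quartile scaling (LFC = 0.18 and 0.13, adjusted p = 0.0079 and 0.0061) and by DESeq2 (adjusted p = 0.041 and 0.049). Slc16a1 was also called with the replicate number as a block (LFC = 0.12, adjusted p = 0.0065).

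**Figure D4:**
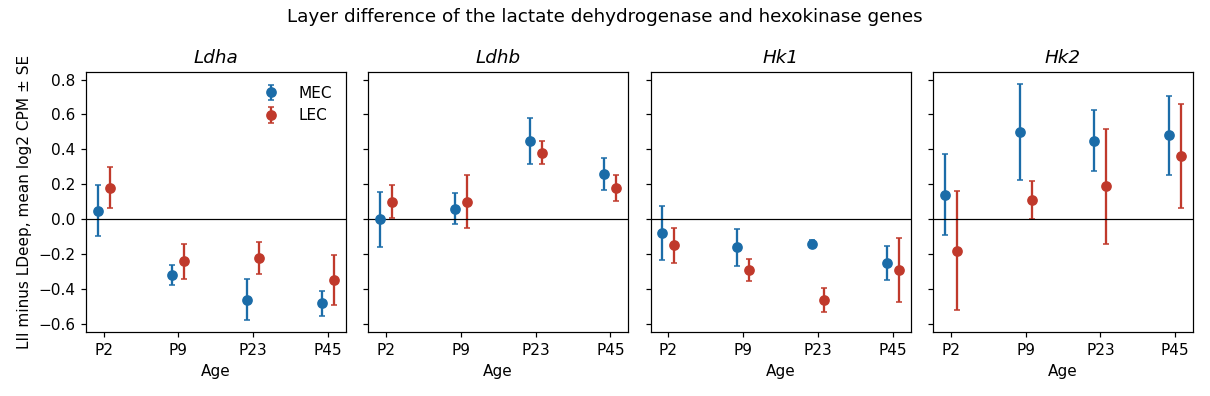
Difference of the LII and LDeep group means in log2 CPM (vertical axis, ± SE of the difference, n = 3 to 5 per group) against age, for Ldha, Ldhb, Hk1 and Hk2, blue for MEC and red for LEC. Ldha was at 0.05 and 0.18 at P2 and at or below -0.22 at all later ages, Ldhb reached 0.45 and 0.38 at P23, and all 8 values of Hk1 were negative.

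The layers also differed in markers of other cells. All 6 endothelial markers, 5 of 6 astrocyte, 4 of 6 microglia and 6 of 7 meningeal fibroblast markers were higher in LII, and 3 of 6 oligodendrocyte markers and 4 of 7 neuron markers were higher in LDeep. All 4 blood markers and 3 of 4 cycling markers were also higher in LII. Against these directions, 1 of 7 meningeal fibroblast markers was higher in LDeep and 1 of 6 oligodendrocyte markers was higher in LII. At P45 the summed astrocyte markers ranged from 3750 to 5040 CPM in LII and from 2350 to 3070 CPM in LDeep, and the oligodendrocyte markers from 695 to 4530 CPM and from 2200 to 11200 CPM. At P2 the oligodendrocyte markers had medians of 84.7 CPM in LII and 69.5 CPM in LDeep. Their part in the layer differences was not tested.

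The third comparison set MEC against LEC. Of the 9 genes, Bdh1 (LFC = 0.17 ± 0.04, adjusted p = 0.00089) and Slc16a1 (LFC = 0.20 ± 0.06, adjusted p = 0.0074) were higher in MEC, against 15.4% of all genes called. The Bdh1 mean was higher in MEC in 8 of 8 sets of layer and age, by 0.03 to 0.33 log2 CPM. Slc16a1 was at 6.08, 6.13 and 6.24 log2 CPM in the MEC LII libraries at P23 and at 5.70, 5.75 and 6.04 in the LEC LII libraries. In LDeep at P23 it was at 6.07, 6.13 and 6.24 in MEC and at 5.52, 5.68 and 5.70 in LEC. Every MEC library was above every LEC library of its layer in P23 and P45 rats, and the regions overlapped at P2 and P9. With LII libraries alone, neither gene was called (Bdh1 LFC = 0.14, adjusted p = 0.13, and Slc16a1 LFC = 0.10, adjusted p = 0.44), and Ldha was called lower in MEC (LFC = -0.19, adjusted p = 0.02, against -0.10 ± 0.04 and 0.089 over all libraries). Over all libraries, 1 of 6 endothelial, 1 of 6 astrocyte, 1 of 7 neuron and 3 of 6 oligodendrocyte markers were also higher in MEC. Lower in MEC were 2 of 6 microglia, 1 of 3 LII neuron and 1 of 4 cycling markers. Of 6 deep layer neuron markers, 1 was higher and 2 were lower. The part of these cell types in the region differences was not tested.

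Interaction contrasts asked whether the layer or region difference changed with weaning. Ldha was the only 1 of the 9 genes called for the layer difference (LFC = -0.29 ± 0.08, adjusted p = 0.017), against 8.8% of all genes. Its median was 8.74 log2 CPM in LII and 8.58 in LDeep of suckling rats, and 8.90 and 9.34 in weaned rats. The order of the layers had already turned at P9. With weaning, 5 of 6 oligodendrocyte, 2 of 6 deep layer neuron, 1 of 6 astrocyte and 1 of 7 meningeal fibroblast markers also changed their layer difference, toward LDeep. Of 3 LII neuron markers 1 changed toward LII and 1 toward LDeep. Of 6 microglia markers 1 also changed toward each layer. The part of these cells was not tested. The Ldha value was -0.27 without P23 replicate 2 (adjusted p = 0.060) and -0.32 in MEC and -0.33 in LEC when each was fitted alone (adjusted p = 0.14 in both). Ldhb had an opposite value of 0.25 ± 0.09 that was not called (adjusted p = 0.061), and was called with the replicate number as a block (LFC = 0.25, adjusted p = 0.043), without the 4 libraries that stood apart (LFC = 0.25, adjusted p = 0.034) and in 10 of 80 fits that left out a library or a replicate number.

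None of the 9 genes was called for a change of the region difference with weaning, where 4.38% of all genes were called, or for a layer difference that differed between MEC and LEC, where 1.25% were (edgeR with no replicate block, and DESeq2 likewise). At an unadjusted p below 0.05 the counts were 4 and 0 of the 9, against 2080 and 1511 of all 12521 genes. The largest region value of the 9 was that of Hk2 (LFC = -0.57 ± 0.19, adjusted p = 0.079), which was at medians of 2.74 in MEC and 2.57 in LEC of suckling rats and 3.26 and 3.38 log2 CPM in weaned rats. Hk2 was called with limma voom and quantile normalization (LFC = -0.61, adjusted p = 0.031) and with the replicate number as a block (LFC = -0.57, adjusted p = 0.04), and so was Slc16a1 with the block (LFC = 0.29, adjusted p = 0.012). Without it Slc16a1 had 0.30 ± 0.11 (adjusted p = 0.12) and Oxct1 0.20 ± 0.08 (adjusted p = 0.13). The region difference of 4 of 6 oligodendrocyte and 1 of 7 neuron markers also changed with weaning, toward MEC. That of 1 of 6 deep layer neuron markers changed toward LEC. The part of these cells was not tested.

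Other genes of fuel use were grouped into 10 lists with 97 names, of which 86 were tested, and 90.7% of these were called between weaned and suckling rats (57 higher and 21 lower), against 81.6% of all genes (5136 higher and 5079 lower of 12521). Of 7 further genes of ketone body metabolism, 5 fell, 1 rose and 1 was not called. The leading falls were in cytosolic enzymes that serve lipid and sterol synthesis, namely the thiolase Acat2 (LFC = -1.66 ± 0.06), the HMG-CoA synthase Hmgcs1 (LFC = -1.18 ± 0.05) and the acetoacetyl-CoA synthetase Aacs (LFC = -0.98 ± 0.05, the highest adjusted p of these 3 being 2.6e-24). Bdh2 was higher in LII (LFC = 1.97 ± 0.18, adjusted p = 5.3e-14).

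Of 9 further genes of monocarboxylate transport, 5 rose, 1 fell and 3 were not called after weaning, with rises of Slc16a4 (LFC = 2.06 ± 0.19, adjusted p = 1.8e-14), the chaperone Emb (LFC = 1.23 ± 0.08, adjusted p = 7.1e-20) and Slc16a3, which encodes the lactate exporter MCT4 (LFC = 1.20 ± 0.15, adjusted p = 4.5e-10). In this comparison, and from P9 to P23, their direction was opposite to that of Slc16a1 and Slc16a7. From P2 to P9 all of them rose, Slc16a4 by 1.54, Emb by 0.60 and Slc16a3 by 0.84, beside 0.94 for Slc16a1 and 0.52 for Slc16a7. Slc16a4 and Slc16a3 were at low mean levels, -0.41 and -0.22 log2 CPM at P2 and 1.95 and 1.11 at P45. Of these 9 genes, 7 were higher in LII, led by Slc16a11 (LFC = 2.26 ± 0.17, adjusted p = 1.4e-16) and Slc16a12 (LFC = 1.84 ± 0.15, adjusted p = 1.2e-15). Ldhd, the D-lactate dehydrogenase of mitochondria, rose after weaning (LFC = 1.73 ± 0.10, adjusted p = 3.5e-22).

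Of 9 glucose transporter genes, 5 rose and 2 fell after weaning. Slc2a1, which encodes the glucose transporter of the blood-brain barrier, was at mean levels of 5.59 and 5.54 log2 CPM in P2 and P9 pups and of 6.90 in P23 rats. It was not called from P2 to P9 (adjusted p = 0.42) and rose from P9 to P23 (LFC = 1.36 ± 0.07, adjusted p = 1.7e-24), at the step at which Slc16a1 fell. Slc2a5 (LFC = 1.72 ± 0.10) and Slc2a13 (LFC = 1.37 ± 0.07) also rose after weaning, with adjusted p values of 1e-21 and 1.5e-25. In LII, Slc2a12 (LFC = 3.50 ± 0.25) and the insulin-responsive Slc2a4 (LFC = 2.43 ± 0.22) were higher than in LDeep, with adjusted p values of 3.1e-17 and 6e-14.

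Of 16 genes of glycolysis below hexokinase, 12 rose and 4 fell after weaning, where 81.6% of all genes were called, and 1 was higher and 12 lower in LII, where 54.0% of all genes were called (2943 higher and 3824 lower). The rise was largest for Aldoc, the aldolase of astrocytes (LFC = 1.88 ± 0.08, adjusted p = 4.8e-29). Eno2 and Tpi1 also rose (LFC = 1.75 ± 0.14 and 1.66 ± 0.14, adjusted p = 3e-17 and 4.8e-16), but were at mean levels of only 0.66 and 0.87 log2 CPM at P2, low for genes known to be abundant in brain, and the source of these low counts was not tested. The single gene tested of the other hexokinases fell after weaning. Pfkl, a phosphofructokinase, was lower in LII (LFC = -0.65 ± 0.05, adjusted p = 1.8e-15).

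Between suckling and weaned rats 12 of 14 genes of pyruvate entry into the mitochondrion and 13 of 15 genes of the tricarboxylic acid cycle rose, as did 5136 of all 12521 genes tested. Among them were Pdk2, a kinase that inhibits pyruvate dehydrogenase (LFC = 1.89 ± 0.06, adjusted p = 3.4e-34), the pyruvate carboxylase Pc (LFC = 1.08 ± 0.04, adjusted p = 1.3e-31), and Sdha of succinate dehydrogenase (LFC = 1.00 ± 0.04, adjusted p = 9.8e-32). From P2 to P9, all 15 genes of the cycle that were tested rose, where 63.4% of all genes were called (3951 higher and 3986 lower). From P9 to P23, 9 of the 15 rose and 1 fell, where 64.6% of all genes were called (4066 higher and 4024 lower). Of the 14 genes of pyruvate entry, 10 rose and 1 fell from P2 to P9, and 9 rose and 1 fell from P9 to P23. The pentose phosphate genes went the other way, with 5 of 6 lower after weaning, led by Pgls (LFC = -1.30 ± 0.06, adjusted p = 2.8e-28), Rpia (LFC = -0.70 ± 0.06, adjusted p = 3.3e-16) and Taldo1 (LFC = -0.66 ± 0.05, adjusted p = 1.6e-17). Of 8 regulators 7 rose, among them Epas1, which encodes a hypoxia-inducible factor (LFC = 1.47 ± 0.12, adjusted p = 1.6e-16), Ppargc1b (LFC = 1.30 ± 0.11, adjusted p = 3e-15) and Esrra, an estrogen-related receptor (LFC = 0.99 ± 0.05, adjusted p = 4.6e-25).

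**Figure D5:**
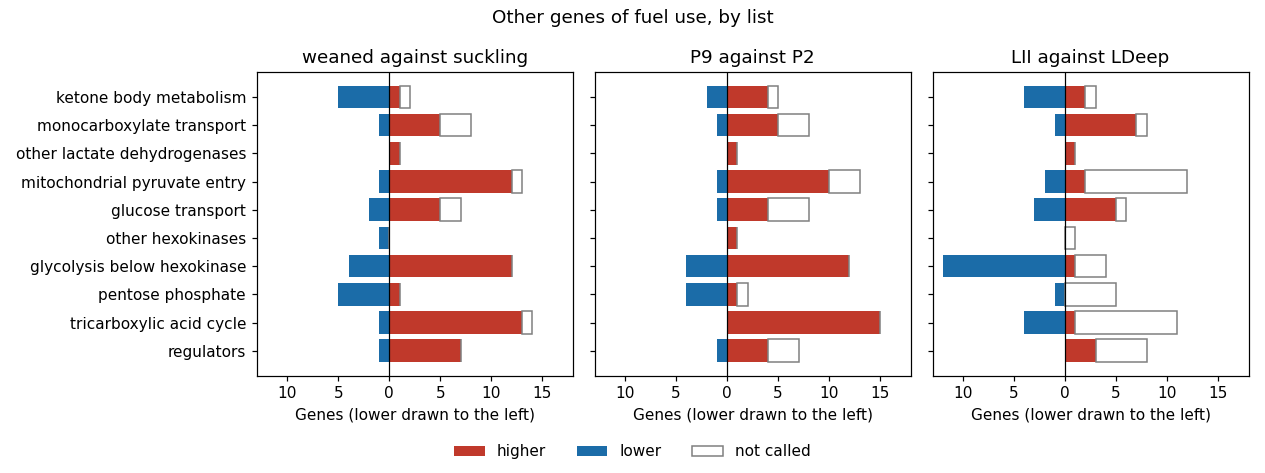
Number of tested genes of each list (horizontal axis) that were higher (red, to the right), lower (blue, to the left) or not called (open) between weaned and suckling rats, between P9 and P2, and between LII and LDeep. Of the genes below hexokinase 12 rose after weaning and 12 were lower in LII, and 5 of 6 pentose phosphate genes fell.

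Over the 16 group means, the genes with the profile most like each of the 9 were found among 11896 genes with a mean of at least 1 CPM. Ldhb was closest to Ddt (r = 0.994), Tex264 (r = 0.992) and Lyz2 (r = 0.990), and Acat1 to Cxadr, Stmn2 (both r = 0.983) and Fabp7 (r = 0.982). Bdh1 was closest to Slc35d3 (r = 0.921), Abcd3 (r = 0.911) and Txn1 (r = 0.909), and Oxct1 to Nit2 (r = 0.915), Nbn (r = 0.914) and Tfrc (r = 0.910). Slc16a1 was closest to Pgm2 (r = 0.936), Scarb1 (r = 0.918) and Ttl (r = 0.909), and Slc16a7 to B4galt6 (r = 0.929), Fam98a (r = 0.914) and the glucose transporter Slc2a6 (r = 0.901). Ldha was closest to Emc2 (r = 0.965), Moap1 (r = 0.961) and Rab4a (r = 0.958), Hk1 to Smyd3 (r = 0.946), Ocrl (r = 0.925) and Acvr1b (r = 0.916), and Hk2 to Shank3 (r = 0.960), Hmha1 (r = 0.942) and Tmem260 (r = 0.938). Among the 9 genes, Bdh1 correlated at 0.82 with both Oxct1 and Slc16a1, and Acat1 at -0.80 with Ldhb. These are descriptions over groups that share ages, libraries and depth.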

How the data were processed

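RNA was measured in 64 libraries, sorted into 16 groups by their labels. As stated by the authors, ribosome-depleted stranded libraries were sequenced in pairs on all lanes, trimmed (Trimmomatic 0.33), aligned to Rn6 (STAR 2.4.0) and counted over RefSeq exons by strand with featureCounts (Subread 1.4.6-p1). The deposited values are raw counts per gene. Genes with low counts were removed by group (12521 of 17260 kept), and 1 mean per group was fitted over all libraries with TMM factors (edgeR 4.0.16, R 4.3.3). limma 3.58.1, where voom with quantile normalization followed the study, and DESeq2 1.42.0, other scalings and filters, each tissue alone, summed counts and left-out libraries were alternatives. The labels do not tie libraries to animals, and p-values measure the spread between libraries, which may in part be technical. No replicate pair of 100 had identical counts. The script was tested on simulated data.

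The 9 genes, the lists and the markers were chosen with earlier results of these data known. Named list genes were up to 3 called genes per list with the largest change after weaning and up to 2 between layers, with a mean of at least 1 CPM. Similar profiles were the 3 highest correlations per gene.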

Additional observations from a re-analysis of the deposited data

Results flagged for a closer look

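Each of the 9 genes was examined for a library far from the rest of its group in the groups of 4 or 5 libraries, and in 7 of these 108 sets the lowest or highest library lay far from the others by Dixon's test. Chance picks out about 1 in 20 such sets. Hk2 was at 4.07 log2 CPM in LEC LDeep P45 replicate 4, against 3.13 to 3.24 in the rest, and this library also stood apart on LII markers. Acat1 was at 6.84 in MEC LII P45 replicate 4, against 7.15 to 7.19. Slc16a1 was at 6.82 in MEC LDeep P9 replicate 4, against 7.16 to 7.23, and Slc16a7 at 4.04 in LEC LDeep P2 replicate 3, against 4.75 to 5.00. Ldha was at 8.95 in MEC LII P9 replicate 3, against 9.02 in the others. Ldhb was at 8.11 in MEC LII P9 replicate 4, against 8.41 to 8.46, and at 8.42 in MEC LDeep P9 replicate 3, against 8.25 to 8.26.

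Ldha was singled out because its layer difference changed between suckling and weaned rats, by -0.29 ± 0.08 on the log2 scale (edgeR, adjusted p = 0.017).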

How the results depend on the processing

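Of 422 values of the 29 called differences under alternatives other than leaving out libraries, 383 kept their direction and call, 36 lost the call and 3 changed sign. The 3 were Oxct1 between weaned and suckling rats, at -0.08 with limma voom and quantile normalization, -0.09 in LEC LII alone and -0.02 in LEC alone. Of 2320 leave-out values of the called differences, 33 lost the call, 32 of them for Oxct1 between weaned and suckling rats (0.04 to 0.10), and none changed sign. Of the differences that were not called, other signs were seen from P2 to P9 for Acat1 in MEC LII (-0.04) and for Hk1 (0.04) and Hk2 (-0.05) in LEC LDeep, from P23 to P45 for Acat1 in MEC LII (0.13) and MEC (0.05), Slc16a7 in LEC LII (0.30) and LEC (0.07), Ldha in MEC LDeep (0.00), Hk1 in MEC LII (-0.03), and for Hk1 between regions in LDeep (-0.01). With 1 replicate left out, Acat1 from P23 to P45 ranged from -0.14 to 0.01, Hk1 from -0.02 to 0.12, and the layer change of Bdh1 with weaning from 0.00 to 0.13.

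Each tissue alone has fewer libraries and called fewer genes. For MEC LII, MEC LDeep, LEC LII and LEC LDeep these were 4033, 4830, 3859 and 4016 from P2 to P9, 4564, 4210, 4608 and 4768 from P9 to P23, and 2, 13, 11 and 10 from P23 to P45. From P23 to P45, MEC, LEC, LII and LDeep alone called 76, 224, 80 and 116 genes, and counts summed per replicate number 60, against 482. Of the 9 genes, 5 were called in MEC LDeep between weaned and suckling rats, against 64.9% of all genes. From P23 to P45, 1 was called in MEC, in LDeep, in MEC LDeep and with summed counts, against 0.616%, 0.955%, 0.109% and 0.458% of all genes. In MEC LII, LEC LII and LEC LDeep 0 were called, against 0.0165%, 0.0928% and 0.0843% of all genes. Upper-quartile scaling called 7 of the 9 between layers, against 46.1% of all genes, and a minimum of 10 counts in every sample left 4353 layer genes. Between regions, LII alone called 1 of the 9, against 13.4% of all genes, and LDeep alone 762 genes. The layer change with weaning gave 434 genes in MEC and 493 in LEC, with 0 of the 9 in either. Without the 4 libraries that stood apart, an alternative chosen after seeing the data, it gave 2 of the 9, against 11.8% of all genes. The region change gave 209 genes in LII and 79 in LDeep, and 1 of the 9 with limma voom, against 4.54% of all genes. With 1 library or replicate number left out, genes called ranged from 283 to 629 (P23 to P45, lowest without P23 replicate 3), 302 to 666 (region change, lowest without P23 replicate 1) and 63 to 218 (layer by region, lowest without P23 replicate 1). Those of the 9 ranged from 0 to 2 for the layer change and from 0 to 1 for the region change (1 without LEC LDeep P2 replicate 4 or P9 replicate 4). Except for fewer libraries or genes, the cause of these changes was not tested.

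Same-numbered libraries of an age correlated in their deviations from group means at 0.134 on average (96 pairs, -0.259 to 0.554), against -0.043 for other numbers, with 55 of 96 pairs above 0.1 against 59 of 300. In addition, 42 of 64 libraries correlated best with their own number, a hint of pairing from the data and not from the design. The labels do not say so, and the fit without the block was kept. If same-numbered libraries share an animal, the p-values of that fit treat libraries of 1 animal as independent. A replicate block called 2 of the 9 genes for the layer change (Ldha and Ldhb), 2 for the region change (Slc16a1 and Hk2) and 286 genes for layer by region, and called Slc16a1 between layers (adjusted p = 0.0065, edgeR). It changed no other call of the 9 genes. Depth limits Hk2 most, with 16 to 165 counts per library.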
